A study of Mus musculus with 4 samples.

Results

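Cthrc1 (ENSMUSG00000054196) was followed through the cell classes of the E10.5 mouse heart, as 1 of the 32285 genes counted. It was chosen because its level in cardiomyocytes was lower in Cyp51 mutant than in wild-type libraries in earlier results of these data, so that this difference is given below as a description, without a test. Hearts came from C57BL/6J embryos, either wild-type (Wt) or homozygous for the I383V allele of Cyp51 (Ho), which had been introduced with CRISPR/Cas9 and encodes a changed form of an enzyme of cholesterol synthesis. There were 2 droplet libraries of each genotype, Wt1, Wt2, Ho1 and Ho2. The number of embryos behind a library was not given in the sources used here, so p-values measure only the spread between these libraries, part of which may be technical.

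Cthrc1 encodes a secreted glycoprotein with a short collagen-like stretch. It is known from matrix-producing cells, among them the fibroblasts of injured or fibrotic tissue, where TGF-beta and BMP signals act on its expression, and it binds Wnt ligands and Frizzled receptors and favours the planar cell polarity branch of Wnt signalling. The endocardial cushions of the embryonic heart are filled by mesenchyme that arises from the endocardium, and they later contribute to valves and septa, while the cardiomyocytes of the outflow tract form at the arterial end of the heart tube.

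In the annotation of GRCm38 (GENCODE M21) the gene lies at chr15:39076932-39087121 on the plus strand, with 4 exons in its transcript 201 and no overlapping gene. Its protein-coding neighbours within 100 kb were Fzd6, a Frizzled receptor, upstream, and Slc25a32, a mitochondrial folate carrier, and Dcaf13, which acts in ribosome biogenesis, downstream.

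The 4 libraries gave 8908, 7154, 6980 and 6126 cells for Wt1, Wt2, Ho1 and Ho2, in that order, or 29168 in all, and 8609 of them held at least 1 Cthrc1 UMI (a unique molecular identifier, which marks 1 captured mRNA molecule). The cells used held 97108290, 105291250, 113489837 and 98382917 UMIs in the same order. Wt1 was the shallowest library, with a median of 10558 UMIs per cell against 14216, 15654 and 15839 in Wt2, Ho1 and Ho2. Over all cells the level of Cthrc1 was 131, 127, 113 and 86.3 UMIs per 1000000 UMIs (CPM) in Wt1, Wt2, Ho1 and Ho2. Between 14 and 34 barcodes were shared by any pair of libraries, of 7058 to 10320 barcodes in a library.

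Some libraries stood apart from the rest in ways that the genotype does not name. Ho1 held 28865 UMIs of Xist and 0 of the Y-linked genes examined, whereas the other libraries held 2 to 5 UMIs of Xist and 8800 to 9909 of the Y-linked genes. Mesenchyme with a low Hapln1 level made up 36.7%, 17.6%, 6.96% and 19.5% of the cells of Wt1, Wt2, Ho1 and Ho2. Many values are therefore given by library. Where a mean ± SD over libraries is given instead, Ho1 may lie far from the others.

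Cells were assigned to classes by the level of named genes per 10000 UMIs of the cell, with Cthrc1 in no gate. Cardiomyocytes were cells with at least 10 Tnnt2 UMIs per 10000 (cardiac troponin T). They were divided into cells with Shox2, a factor of the sinus venosus and pacemaker region, cells with Sema3c, a semaphorin of the outflow tract, Myl2-high cells (at least 20 per 10000 of the ventricular myosin light chain), Stard10 cells and cells with none of the 4. The limit was 1 per 10000 for Shox2, Sema3c and Stard10. Cells with none of the 4 lay below every limit, but 58.8% of them held a Myl2 UMI. Cushion mesenchyme had at least 3 per 10000 of a sum of 7 mesenchyme genes and at least 5 of Hapln1, a link protein of the hyaluronan matrix. The remaining mesenchyme, endocardium (endothelial genes with a UMI of Npr3 or Nfatc1), other endothelium, epicardium, epithelium, macrophages and erythroid cells were gated likewise. The 2514 cells that met no gate (8.62% of the cells, and 16.0%, 5.06%, 3.88% and 7.46% of those of Wt1, Wt2, Ho1 and Ho2) stayed unassigned. For cardiomyocytes and cushion mesenchyme, genes outside the gates were read as a check of the labels, and for the other classes none was. Myl7 and Actc1 were found in 99.3% and 98.6% of the cardiomyocytes, but also in 77.1% and 61.5% of cushion cells. Their levels were 24042.5 and 13130.5 CPM in cardiomyocytes against 165 and 132 CPM in the cushion. Sox9, a factor of the cushion mesenchyme that no gate used, was found in 70.4% of cushion cells against 9.40% of endocardial cells. It was also found in 56.2% of epicardial cells and 36.6% of the other mesenchyme, so it separates the cushion less well from these.

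Cthrc1 was above all a transcript of the cushion mesenchyme. This class made up 8.34% of the cells and held 48.8% of all 47387 Cthrc1 UMIs, and both mesenchyme classes together held 78.3%. Its level was 639, 680, 685 and 660 CPM in Wt1, Wt2, Ho1 and Ho2. The libraries thus lay close together, and the genotypes overlapped. A Cthrc1 UMI was found in 85.5% to 86.8% of cushion cells, and in 57.6%, 61.1%, 58.7% and 56.0% of them after each cell had been thinned to 2000 UMIs.

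The other mesenchyme came next, with a mean of 226 ± 120 CPM (SD, n = 4 libraries), and was far more variable, at 163, 249, 383 and 107 CPM in Wt1, Wt2, Ho1 and Ho2. In the same libraries Hapln1 stood at 25.7, 60.9, 173 and 27.0 CPM and Postn, another matrix gene of cushions, at 32.5, 72.8, 164 and 30.8 CPM. Ho1 was thus the highest library for all 3 genes, followed by Wt2. Markers of other cells also varied between the libraries, in different orders. The 12 cardiomyocyte markers summed to 544, 1106, 4450 and 1059 CPM, led by Myl7, the 9 endothelial markers to 89.7, 130, 236 and 100.002 CPM, led by Egfl7, and the 8 erythroid genes to 5.77, 10.1, 36.7 and 8.80 CPM, led by Hbb-y, and for these lists Ho1 was the highest library. The 6 epithelial markers summed to 132, 278, 104 and 187 CPM, lowest in Ho1, and the 6 epicardial markers to 53.3, 74.5, 97.7 and 170 CPM, highest in Ho2. The part of these genes in the Cthrc1 values was not tested.

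Outside the mesenchyme, and among the gated classes with at least 100 cells in all, the order of mean levels was epicardium (116 ± 33.2 CPM), epithelium (77.5 ± 25.6), other endothelium (48.5 ± 11.1), endocardium (28.4 ± 3.55) and cardiomyocytes (20.6 ± 7.34; SD, n = 4 libraries for each). By the ranges over the 4 libraries, the cushion mesenchyme was set apart from the other mesenchyme, and the other endothelium by little from the endocardium (33.3 CPM at the lowest against 32.9 at the highest), while the other neighbours in this order overlapped. Within each library the other mesenchyme was above the epicardium, and the epithelium above the other endothelium. The epithelium of Ho1 had 7 cells and 9 Cthrc1 UMIs. Unassigned cells had 93.4, 180, 77.5 and 50.3 CPM in Wt1, Wt2, Ho1 and Ho2, so that both Ho libraries were lower in these cells too, at 0.467 of the Wt mean. Endocardial cells, from which the cushion mesenchyme arises, had 32.9, 27.6, 28.6 and 24.3 CPM in Wt1, Wt2, Ho1 and Ho2, and their Hapln1 level reached 411 to 500 CPM. The gate gene of the cushion was thus well expressed in a class with little Cthrc1. Macrophages held 2, 1, 52 and 0 Cthrc1 UMIs, so that all but 3 of them came from Ho1, where 6 of 29 macrophages had a UMI. With 80 macrophages and 64 erythroid cells in all, these classes were left out of the order.

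**Figure D1:**
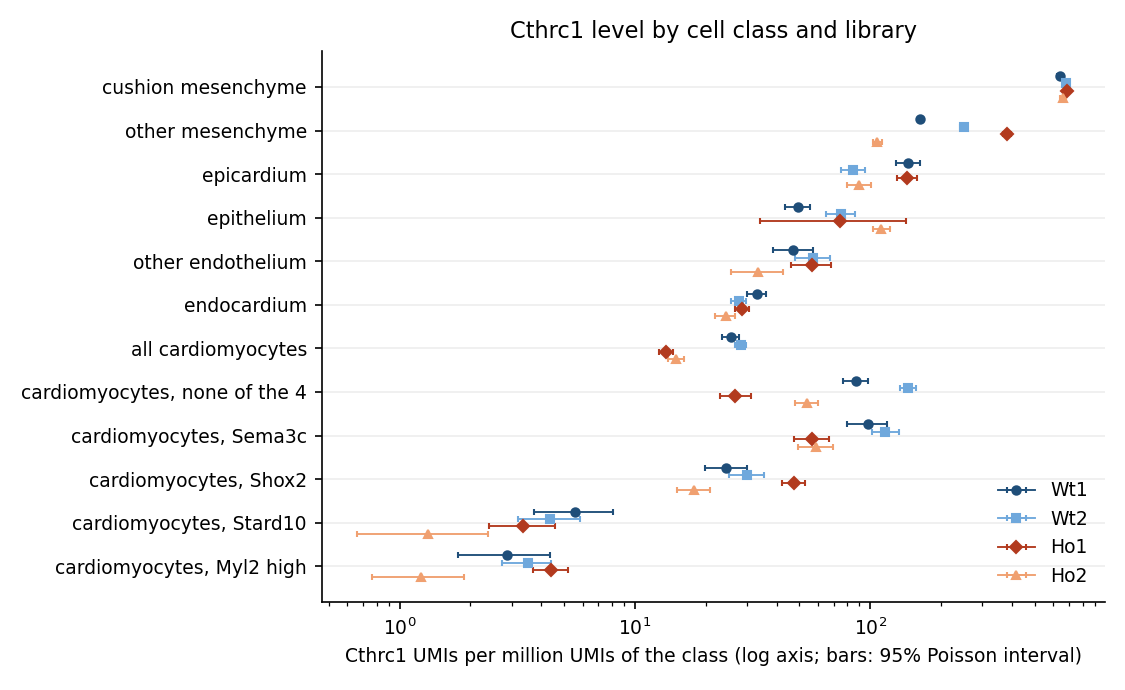
Cthrc1 CPM of the class (x axis, logarithmic) for 12 cell classes in the 4 libraries, with 95% Poisson intervals that cover counting error only. Cushion mesenchyme lies between 639 and 685 in every library, and within cardiomyocytes the subsets span 1.23 to 145.

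Within the cardiomyocytes Cthrc1 was unevenly spread. The class as a whole stood at 25.5, 28.1, 13.6 and 15.0 CPM in Wt1, Wt2, Ho1 and Ho2, from 1674, 2593, 3399 and 2365 cells. Myl2-high cells were at 2.85, 3.50, 4.41 and 1.23 CPM and Stard10 cells at 5.59, 4.36, 3.35 and 1.32 CPM. Both subsets were thus near the lower end of all classes, although Myl2-high cells alone made up 4290 of the 10031 cardiomyocytes. Shox2 cells stood at 24.5, 30.0, 47.4 and 17.8 CPM. The highest levels were those of Sema3c cells, at 97.7, 116, 56.6 and 58.9 CPM, and of cells with none of the 4, at 86.7, 145, 26.8 and 53.7 CPM. In Ho1, however, Shox2 cells lay above the cells with none of the 4. Sema3c cells held 19.7%, 19.9%, 17.7% and 22.1% of the Cthrc1 UMIs of the cardiomyocytes of Wt1, Wt2, Ho1 and Ho2, and cells with none of the 4 held 52.9%, 58.8%, 22.2% and 48.7%. In Ho1 the Shox2 cells held more, at 37.8%.

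The gene had been chosen for its lower level in Ho cardiomyocytes, and both Ho libraries lay under the Wt pair, with 14.3 ± 1.01 against 26.8 ± 1.82 CPM (SD, n = 2 libraries each), or 0.533 of the Wt mean. After thinning to 2000 UMIs a Cthrc1 UMI was found in 4.03%, 3.85%, 2.53% and 2.37% of the cardiomyocytes of Wt1, Wt2, Ho1 and Ho2, with exact 95% intervals of 3.06% to 5.20%, 3.09% to 4.73%, 2.01% to 3.14% and 1.78% to 3.10%. Without thinning the shares were 8.90%, 10.9%, 8.53% and 7.78%. All intervals and limits given here cover counting error only. In the Myl2-high cells the thinned shares were 0.992%, 0.290%, 0.450% and 0.246%, while these cells had a median of 11646, 19693, 19652 and 21053 UMIs and all cardiomyocytes one of 12075, 16883, 17320 and 18122. The shares over all cardiomyocytes were thus above those of the Myl2-high cells of the same library.

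Ordered by library, 16.9% of the 12127 genes with at least 1 CPM on average in cardiomyocytes had both Ho libraries below both Wt libraries, so that the order of the libraries alone was common among genes. In cells of the Sema3c subset Cthrc1 had the same order, with a Ho mean of 57.8 ± 1.59 CPM against a Wt mean of 107 ± 13.1 CPM (0.540 of the Wt mean), and 20.3% of 12309 genes were so ordered there. Cells with none of the 4 had a Ho mean of 40.2 ± 19.1 CPM against 116 ± 41.0 CPM, or 0.348 of the Wt mean, with 21.9% of 12539 genes in this order. In Shox2 cells the genotypes overlapped, since Ho1 was the highest library and Ho2 the lowest, and in Myl2-high cells they overlapped too. Stard10 cells were lower in both Ho libraries, at levels under 6 CPM.

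The value was also computed at a common mix of subsets, as a description. With the subsets of every library set to their mean proportions, Cthrc1 stood at 22.3, 31.6, 16.2 and 13.4 CPM in Wt1, Wt2, Ho1 and Ho2, a Ho mean of 0.549 of the Wt mean. With each library's own mix but the mean level of each subset, the values were 24.0, 18.4, 17.9 and 23.3 CPM, and the genotypes overlapped.

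Few cardiomyocytes carried most of the transcript. Cells with at least 2 Cthrc1 UMIs and at least 2 per 10000, a limit chosen after the values were seen, were called high-Cthrc1 cardiomyocytes, and there were 47, 105, 74 and 46 of them in Wt1, Wt2, Ho1 and Ho2 (272 in all). They were 2.81%, 4.05%, 2.18% and 1.95% of the cardiomyocytes and held 74.0%, 79.5%, 60.9% and 68.3% of their Cthrc1 UMIs. Their level was 664, 654, 480 and 569 CPM, beside 639, 680, 685 and 660 CPM in the cushion mesenchyme. Cushion cells were not chosen by Cthrc1, and 13.2% to 14.5% of them had no UMI of it. Nothing is therefore read from the likeness of these levels. The other cardiomyocytes stood at 6.82, 5.96, 5.41 and 4.85 CPM. Both the share of high cells and the level inside and outside them were lower in both Ho libraries, to 0.601, 0.795 and 0.803 of the Wt mean. Of the 10031 cardiomyocytes, 83 lay between 1.6 and 2.4 per 10000, within 20% of the limit.

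**Figure D2:**
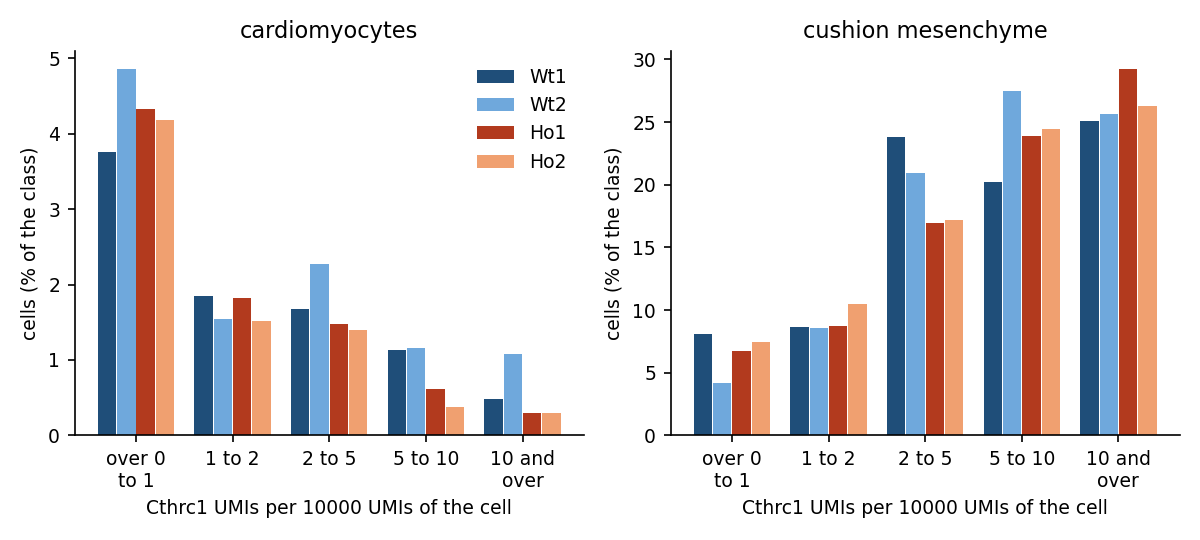
Percentage of the cardiomyocytes (left) and of the cushion mesenchyme (right) of each library in 5 ranges of Cthrc1 UMIs per 10000 UMIs of the cell, with cells without a UMI left out (89.1% to 92.2% of cardiomyocytes, 13.2% to 14.5% of cushion cells). In both ranges from 5 upwards the Ho cardiomyocytes lie below the Wt ones. In the cushion the genotypes overlap from 5 to 10, and both Ho libraries lie above both Wt libraries at 10 and over (29.2% and 26.3% against 25.1% and 25.6%). From 2 to 5 the cushion of both Ho libraries lies below (16.9% and 17.2% against 23.8% and 21.0%).

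The high cells were shallower than the other cardiomyocytes. In Wt1, Wt2, Ho1 and Ho2 they held a median of 11637, 13195, 12436 and 16167 UMIs, below the 12161, 17220, 17466 and 18235 of the rest in every library. All cells with none of the 4, the largest subset among the 272, had medians of 9168, 10375, 12334 and 13880 UMIs. The high cells were thus deeper than that subset in every library. Their median Tnnt2 level was 16.98 to 19.20 per 10000, against 34.1 to 37.2 in the other cardiomyocytes, and all passed the gate of 10. By subset, 131 of the 272 were cells with none of the 4, 72 Shox2 cells, 56 Sema3c cells, 7 Myl2-high cells and 6 Stard10 cells. The libraries differed in this, with Shox2 cells at 17.0%, 17.1%, 41.9% and 32.6% of the high cells of Wt1, Wt2, Ho1 and Ho2. In Ho1 the Shox2 cells outnumbered those with none of the 4, at 31 against 27. The doublet caller had removed 746, 464, 440 and 334 barcodes beforehand, and with these kept the high cells were 4.08%, 4.82%, 3.29% and 2.21% of the cardiomyocytes.

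The high cells were set beside the other cardiomyocytes of the same library, gene by gene. Among 7668 genes with at least 10 CPM in these cells, 21 besides Cthrc1 were at least 4 times as high as in the other cardiomyocytes of the same library in each of the 4 libraries, and 11 were at least 4 times lower. The limit of 10 CPM applied to the high cells alone, so a gene low in them was left out however high it was in the other cardiomyocytes. The counts of higher and lower genes are therefore not compared. Since the cells had been chosen by Cthrc1 from the same counts, these values are a description. The 10 leading genes were Baalc, Phlda2, Eln, Dlk1, Tgfbi, Col1a2, Adamtsl1, Col1a1, Pmp22 and Nrp2, and they include elastin (Eln), both chains of type I collagen (Col1a1 and Col1a2), a matrix protein induced by TGF-beta (Tgfbi) and a receptor of class 3 semaphorins (Nrp2).

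Baalc, a lipid-anchored protein of the cell periphery, stood at 68.2 ± 8.48 CPM in the high cells and 1.68 ± 0.592 CPM in the other cardiomyocytes (SD, n = 4 libraries). It lies at chr15:38933144-38952912, 124 kb upstream of Cthrc1 on the same strand, with Fzd6 as the protein-coding gene between them. Fzd6 itself was at 7.66 ± 4.67 CPM in the high cells and 4.92 ± 0.143 CPM in the others. Fzd6 thus differed by less than its spread over libraries. Slc25a32 (5.15 ± 0.862 against 2.52 ± 0.184 CPM) and Dcaf13 (30.2 ± 8.04 against 29.1 ± 1.04 CPM) on the downstream side differed by less than 4 times as well. In the cushion mesenchyme Baalc was at 29.9 ± 2.98 CPM.

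Of the 21 genes, 12 were higher on average in the high cardiomyocytes than in either mesenchyme. Phlda2, an imprinted gene that limits growth, stood at 390, 357, 114 and 426 CPM in the high cells of Wt1, Wt2, Ho1 and Ho2, 17.8 ± 3.89 CPM in the cushion and 57.3 ± 22.3 CPM in other mesenchyme. Dlk1, a non-canonical Notch ligand, was at 389, 583, 98.5 and 344 CPM in the high cells and at 6.85 ± 2.23 and 133 ± 47.7 CPM in the mesenchymes. Nrp2 was at 183, 192, 61.7 and 180 CPM, against 1.74 ± 0.530 and 22.9 ± 9.23 CPM. For all 3 genes Ho1 was far the lowest library, and Dlk1 there was below its mean in the other mesenchyme. Bmp4 and Isl1, outside the 10 and named after their values were seen, are known from the outflow tract and second heart field. Both were also higher in the high cells than in the cushion. Bmp4 stood at 396 ± 96.8 CPM in the high cells, 78.6 ± 26.2 CPM in other cardiomyocytes and 13.5 ± 2.36 CPM in the cushion. Isl1 stood at 179 ± 65.6, 31.7 ± 14.3 and 11.6 ± 0.534 CPM. In the other mesenchyme Bmp4 and Isl1 stood at 72.6 ± 35.1 and 123 ± 72.5 CPM. The Ho1 high cells were the lowest for both, at 262 and 93.5 CPM, and Isl1 there was below its mean in the other mesenchyme. Neither gene was confined to the Sema3c subset. Over all libraries Bmp4 was found in 69.1% of Shox2 cells and 59.1% of Sema3c cells, and Isl1 in 48.6% and 46.1%. Their levels were higher in Sema3c cells, at 302 against 202 CPM and 136 against 88.6 CPM. The 6 epicardial markers summed to 54.8, 155, 133 and 143 CPM in the high cells of Wt1, Wt2, Ho1 and Ho2. In all cardiomyocytes they summed to 36.9, 34.7, 30.6 and 64.5 CPM. The region of the high cells was not tested. Of genes of the cushion and other mesenchyme, likewise named after their values were seen, some were lower than in the cushion and some higher. Twist1 stood at 76.8 ± 28.3 CPM in the high cells against 740 ± 83.4 CPM in the cushion, Sox9 at 21.9 ± 11.4 (37.8 in Ho1) against 154 ± 11.5 CPM, and Postn at 6.85, 3.47, 21.9 and 1.32 CPM in Wt1, Wt2, Ho1 and Ho2, most in Ho1, against 119 ± 17.3 CPM, while Col1a2 was at 236 ± 46.0 against 22.7 ± 2.87 CPM and Col1a1 at 87.7 ± 26.3 against 27.4 ± 7.10 CPM. In the other mesenchyme Twist1, Sox9, Postn and Col1a1 averaged more than in the high cells (242 ± 66.7, 81.4 ± 40.5, 74.9 ± 62.3 and 100 ± 32.0 CPM). Col1a2 averaged less there (93.1 ± 22.7 CPM). In the other cardiomyocytes Twist1, Sox9 and Postn were lower than in the high cells, at 11.7 ± 2.43, 2.94 ± 0.660 and 0.809 ± 0.408 CPM. Genes of working myocardium were lower in the high cells than in the other cardiomyocytes. Myl2 stood at 190, 216, 455 and 56.9 CPM in Wt1, Wt2, Ho1 and Ho2, most in Ho1, against 2983 ± 420 CPM. Actc1 was at 4283 ± 438 against 13286 ± 1006 CPM.

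**Figure D3:**
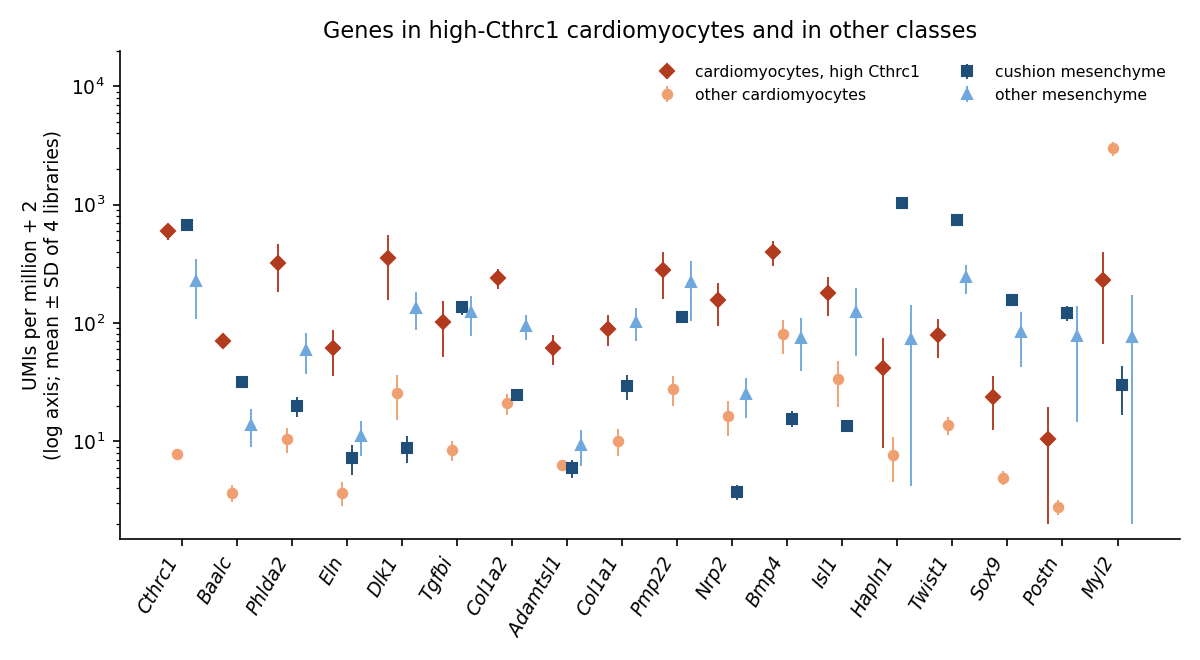
CPM plus 2 (y axis, logarithmic) of 18 genes in high-Cthrc1 cardiomyocytes, other cardiomyocytes, cushion mesenchyme and other mesenchyme, as mean ± SD over 4 libraries, with lower bars ending at the value of 0 UMIs where the SD exceeds the mean. For Cthrc1, by which only the high cells were chosen, they stand at 592 and the cushion at 666. The high cells are below the cushion for Hapln1 (39.4, 31.9, 83.6 and 3.97 in Wt1, Wt2, Ho1 and Ho2, most in Ho1, against 1032) and above it for Dlk1 (98.5 in Ho1 and 344 to 583 in the other libraries, against 6.85).

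Across all cardiomyocytes, 6 of these 10 genes had both Ho libraries below both Wt libraries (Phlda2, Eln, Dlk1, Tgfbi, Adamtsl1 and Pmp22), as did 8 of 10 in Sema3c cells and 7 of 10 in cells with none of the 4, beside the 16.9%, 20.3% and 21.9% of all genes given above. Dlk1 in cardiomyocytes stood at 43.2, 49.3, 11.5 and 26.5 CPM in Wt1, Wt2, Ho1 and Ho2, and Eln at 4.82, 4.71, 1.10 and 2.29 CPM. For both, Ho1 was the lowest library. Bmp4 at 109, 85.5, 47.7 and 104 CPM and Isl1 at 49.0, 33.4, 15.5 and 43.9 CPM overlapped between genotypes, since Ho2 lay at the level of the Wt libraries. Rspo3, an enhancer of Wnt signalling, was higher in both Ho libraries, at 108 and 108 CPM against 81.1 and 67.7 CPM. In Sema3c cells Rspo3 and Isl1 overlapped and Bmp4 was lower in both Ho libraries (353, 405, 229 and 267 CPM). In cells with none of the 4, Bmp4 and Isl1 were lower and Rspo3 higher in both Ho libraries. The genes and Cthrc1 share the cells and libraries that chose them, so nothing further is read from these counts.

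The share of high cells depended on what it was divided by. As a share of cardiomyocytes it was lower in both Ho libraries, with 2.06% ± 0.164 against 3.43% ± 0.878 (SD, n = 2 libraries each). As a share of all cells it was 0.528%, 1.47%, 1.06% and 0.751% in Wt1, Wt2, Ho1 and Ho2, and the genotypes overlapped, while cardiomyocytes made up 18.8%, 36.2%, 48.7% and 38.6% of the cells. How much of the outflow region each dissection retained was not given in the sources used here, and its part in the share was not tested.

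**Figure D4:**
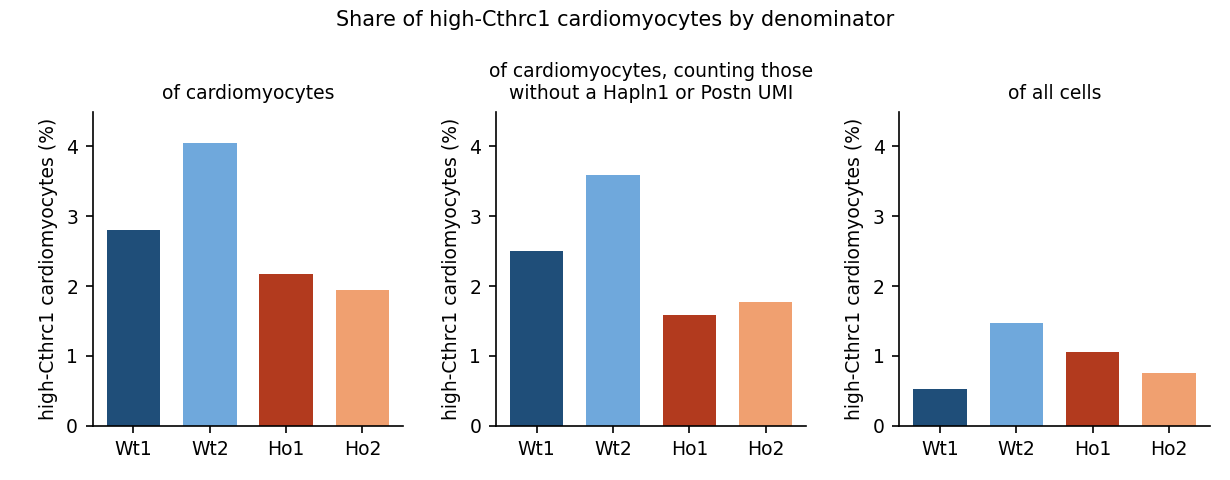
High-Cthrc1 cardiomyocytes in each library as a percentage of cardiomyocytes, as a percentage of cardiomyocytes when only those without a UMI of Hapln1 or Postn are counted, and as a percentage of all cells. Both Ho bars lie below both Wt bars in the first and second panels (2.18 and 1.95 against 2.81 and 4.05 in the first), and they overlap in the third.

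Free RNA from lysed cells brings transcripts of other classes into every droplet, in the proportions of their source, so the counts of cushion genes in cardiomyocytes bear on how much Cthrc1 could have come with them. Against the summed list of 14 mesenchyme markers, cardiomyocytes held 0.109, 0.144, 0.0730 and 0.0642 Cthrc1 UMIs per UMI of the list in Wt1, Wt2, Ho1 and Ho2, below the 0.391, 0.369, 0.419 and 0.366 of the cushion and below the 0.123, 0.146, 0.217 and 0.0805 of the other mesenchyme. By this measure, the main one here, cardiomyocytes had no more Cthrc1 than the mesenchymes had for the same amount of marker RNA, although Prrx2 made up much of the list in cardiomyocytes. Hapln1 was taken as a reference gene after the values were seen, and it gave another order. Cushion mesenchyme held 0.643, 0.688, 0.671 and 0.587 Cthrc1 UMIs per Hapln1 UMI in Wt1, Wt2, Ho1 and Ho2. The cushion was gated on Hapln1, which lowers its ratio, and in the other mesenchyme the ratio was 6.35, 4.09, 2.21 and 3.97. In cardiomyocytes it was 5.19, 4.67, 1.17 and 4.32, between the ratios of both mesenchymes in Wt1 and Ho1 and above both in Wt2 and Ho2. Ho1 had the lowest ratio of the 4 and a Hapln1 level of 11.6 CPM in cardiomyocytes, against 4.92, 6.02 and 3.48 CPM in Wt1, Wt2 and Ho2. Myl2-high cells had ratios of 1.24, 1.01, 0.402 and 0.404, and all cardiomyocytes outside the high cells 1.74, 1.17, 0.522 and 1.40, so that both Ho libraries of the former and Ho1 of the latter lay below the cushion. High cells had been chosen by their Cthrc1 UMIs, which fixes a high ratio in them and lowers that of the cardiomyocytes outside them. Nothing is therefore read from the position of either set. Ho2 had 3 Hapln1 UMIs in the high cells. Of the high cells, 89.4%, 90.5%, 77.0% and 93.5% had no Hapln1 UMI and 97.9%, 97.1%, 85.1% and 97.8% no Postn UMI, whereas 40.7% to 49.6% of cushion cells lacked a Postn UMI. Most cells of the other mesenchyme lacked these UMIs as well, since 17.3% of them held a Hapln1 UMI and 17.4% a Postn UMI. Lacking them therefore does not set the high cells apart from the other mesenchyme. The 231 high cells with neither gene made up 2.51%, 3.59%, 1.59% and 1.78% of the cardiomyocytes.

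**Figure D5:**
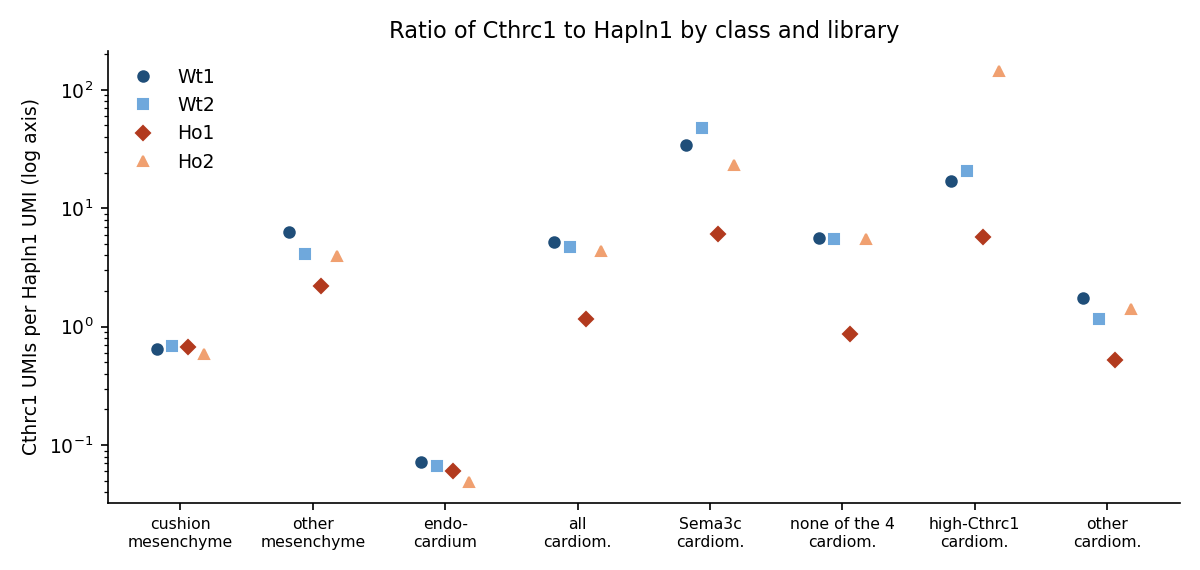
Cthrc1 UMIs per Hapln1 UMI (y axis, logarithmic) in 8 classes and subsets of the 4 libraries, 1 point per library. Cushion mesenchyme lies between 0.587 and 0.688, other mesenchyme between 2.21 and 6.35 and all cardiomyocytes between 1.17 and 5.19, and Ho1 is the lowest library in each of the 5 cardiomyocyte sets shown; Shox2 cells, which are not shown, have 5.59, 12.4, 6.50 and 10.1 in Wt1, Wt2, Ho1 and Ho2, lowest in Wt1.

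Multiplied by the cushion ratio, the Hapln1 level of the cardiomyocytes corresponded to 3.17, 4.14, 7.80 and 2.04 CPM of Cthrc1 in Wt1, Wt2, Ho1 and Ho2, and their Postn level to 4.31, 3.30, 9.17 and 4.82 CPM, beside the measured 25.5, 28.1, 13.6 and 15.0 CPM. Taking off the highest of the estimates by these 2 genes, with the ratio of the cushion or of all other cells, left 21.2, 24.0, 4.41 and 10.2 CPM. The ratio of the other mesenchyme, at 6.35, 4.09, 2.21 and 3.97 Cthrc1 UMIs per Hapln1 UMI, was not among those used. In each library it would give a higher estimate and leave less. Taking off the level of the Myl2-high cells of the same library left 22.7, 24.6, 9.16 and 13.8 CPM. These differences take up the values by which the gene was chosen and rest on the reference gene, so nothing is read from their order. In Sema3c cells, where Postn had 0 UMIs in Wt1, Wt2 and Ho2, the level left after the highest of the estimates used was 95.4, 114, 43.9 and 57.4 CPM. In the Ho1 subset with none of the 4, the highest of the estimates used, 20.8 CPM, took up most of the measured 26.8 CPM.

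Other reference genes gave higher estimates. By Twist1 and the cushion ratio the estimate was 13.4, 10.1, 12.8 and 12.0 CPM in Wt1, Wt2, Ho1 and Ho2, close to the measured level in Ho1 and Ho2. By Col3a1 and the cushion ratio it was 37.5, 36.1, 49.5 and 45.4 CPM, above the measured level in every library. Both genes were also raised in the high cells over the other cardiomyocytes (Col3a1 to 156 ± 29.8 from 18.4 ± 2.74 CPM, and Twist1 to 76.8 ± 28.3 from 11.7 ± 2.43 CPM). The list of 14 mesenchyme markers summed to 235, 195, 186 and 234 CPM in cardiomyocytes with no gene at 0, and 137, 111, 105 and 130 CPM of it were Prrx2. In Myl2-high cells, with 4.81 to 13.6 CPM of Col3a1, the measured Cthrc1 was 1.23 to 4.41 CPM. The share of free RNA in the Cthrc1 counts of single cardiomyocytes was not tested.

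Markers of other cells also differed between the cardiomyocytes of the libraries. The 8 erythroid genes summed to 4.09, 6.30, 20.4 and 7.71 CPM in Wt1, Wt2, Ho1 and Ho2, led by Hbb-y, and the 6 macrophage markers to 3.26, 6.23, 1.18 and 0.381 CPM, led by Fcer1g. Endothelial markers summed to 52.6 to 64.2 CPM and epicardial markers to 36.9, 34.7, 30.6 and 64.5 CPM. Erythroid sums were thus higher and macrophage sums lower in both Ho libraries. The 6 epithelial markers summed to 106, 86.1, 74.0 and 112 CPM, led by Krt18, and overlapped, but of the 5 tested none was higher in Ho (median of -0.73 on the log2 scale), among them Epcam at 2.11, 1.23, 0.496 and 0.688 CPM (edgeR adjusted p = 0.495). Their part in the Cthrc1 difference was not tested.

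Outside the cardiomyocytes the genotype difference of Cthrc1 could be tested, with edgeR's quasi-likelihood test on library sums and Benjamini-Hochberg adjustment over all genes of a class. In the cushion mesenchyme the log2 fold change of Ho over Wt was 0.036 ± 0.078 (SE, adjusted p = 0.979). In the other mesenchyme it was 0.28 ± 0.59 (adjusted p = 1.000), and without Ho1 the estimate was -0.92 and without Ho2 0.92. In the endocardium it was -0.14 ± 0.13 (adjusted p = 0.929). Cthrc1 therefore passed the test in none of these 3 classes, with 2 libraries of each genotype, while in cardiomyocytes the same fit gave a log2 fold change of -0.92. Whether the effect differed between cardiomyocytes and cushion mesenchyme was not tested, because the cardiomyocyte effect had chosen the gene. The thinned share of endocardial cells with a UMI was lower in both Ho libraries (4.86%, 4.97%, 4.27% and 3.88% in Wt1, Wt2, Ho1 and Ho2), but with cells thinned to 5000 UMIs the genotypes overlapped (9.17%, 9.84%, 9.94% and 9.46%). An exact permutation test of 2 against 2 libraries cannot give a two-sided p below 0.33.

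The same fits called few genes of any kind. In cardiomyocytes 0 of 14649 genes passed (0%), with 974 at an unadjusted p under 0.05, and DESeq2 called 23. In the cushion mesenchyme 5 of 11960 passed (0.0418%), namely A430010J10Rik, Rps27rt, Wdr89 and Atf3, which were higher (0.0334%), and Eno1, which was lower (0.00836%). In the endocardium it was Wdr89 alone, 1 of 13352 (0.00749%), and in the other mesenchyme 0 of 13319 (0%), with 377 at an unadjusted p under 0.05 and 33 called by DESeq2. Rps27rt and Eno1 have near-identical copies elsewhere in the genome, and their counts are uncertain for that reason.

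Genes of the pathways in which CTHRC1 is known to act were read from the same fits. Of the Wnt planar cell polarity list, 36 of 38 genes were tested in cardiomyocytes and 35 in the cushion, and 0 passed in either, with median log2 fold changes of 0.04 and -0.01 beside 0.00366 and 0.00274 over all genes. In cardiomyocytes its largest changes were those of the ligand Wnt5b (1.92, 1.84, 2.29 and 2.93 CPM in Wt1, Wt2, Ho1 and Ho2) and of the receptor Ror2 (13.8, 15.0, 18.0 and 18.8 CPM). For these genes Ho1 and Ho2 exceeded Wt1 and Wt2, at adjusted p-values of 0.746 and 0.590 by edgeR. In the cushion Wnt5b was at 3.54, 4.37, 6.69 and 6.70 CPM (log2 fold change 0.74 ± 0.24, edgeR adjusted p = 0.555).

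The TGF-beta and BMP list had 35 of 35 genes tested in cardiomyocytes and 30 in the cushion, with 0 passing in either and medians of 0.09 and 0.02. The ligand Bmp2 stood at 20.1, 18.8, 30.5 and 37.8 CPM in the cardiomyocytes of Wt1, Wt2, Ho1 and Ho2, a log2 fold change of 0.81 ± 0.12 (edgeR adjusted p = 0.130). Bmp6 had 2.80, 2.60, 1.06 and 2.11 CPM. Both missed the threshold. In the cushion the ligand Bmp4 stood at 12.99, 16.7, 11.8 and 12.7 CPM (edgeR adjusted p = 0.888).

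Of the fibrillar collagens and their processing enzymes, 21 of 23 were tested in cardiomyocytes and 19 in the cushion, and 0 passed, with medians of -0.07 and -0.0025. Pcolce, an enhancer of procollagen cleavage, stood at 95.8, 109, 73.3 and 84.6 CPM in the cushion of Wt1, Wt2, Ho1 and Ho2 (log2 fold change -0.39 ± 0.10, edgeR adjusted p = 0.307). Col1a1 had 20.5, 29.6, 23.6 and 36.0 CPM there. In cardiomyocytes the largest changes were those of Adamts2, an N-proteinase of procollagen with under 0.6 CPM, and Col11a1, at 8.79, 6.14, 5.35 and 6.01 CPM. The mesenchyme markers had 13 of 14 genes tested in both classes and 0 passing, with Prrx1 in the cushion at 29.1, 31.7, 19.6 and 21.0 CPM (edgeR adjusted p = 0.142).

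The genes whose pattern over classes was most like that of Cthrc1 were Sox9, Col9a3, 2610035D17Rik, Loxl2, Gnai3, Id1, Rem1, Rcn3, Plce1 and Gli3. Their Pearson correlation with Cthrc1, on log2(CPM + 1) over 51 sums of a class in a library from 14 classes and among 10208 genes, was 0.89 for Sox9 and 0.85 for Gli3, the first and the last of the 10. The points share libraries and cells of like kind, so these values describe likeness only. Sox9 and Col9a3, a chain of a cartilage collagen, were at 154 and 120 CPM in the cushion. They were at 7.61 and 3.17 CPM in the cardiomyocyte subset with none of the 4, where Cthrc1 averaged 78.0 CPM. Loxl2, a lysyl oxidase that crosslinks collagen, was at 145 CPM in the cushion and 53.0 CPM in those cardiomyocytes. Id1, a target of BMP signals, was at 153 and 143 CPM.

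Barcodes that were not used also held the transcript. Those outside the cell filters had 55.6, 73.7, 31.5 and 39.9 CPM of Cthrc1 in Wt1, Wt2, Ho1 and Ho2, and those removed as doublets 118, 128, 91.7 and 80.2 CPM. Both were lower in both Ho libraries.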

How the data were processed

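Hearts of E10.5 Wt and Ho embryos were profiled with the 10x 3' assay, in 2 libraries per genotype. The authors aligned reads to mm10 with Cell Ranger 6.1.1 and deposited raw UMI counts of 32285 genes for 33589 barcodes, with no normalization. The submitters' processing notes also name Seurat 4.1.0. Barcodes with 500 to 50000 UMIs, 500 to 6000 genes and at most 20% mitochondrial counts were kept, and the highest Scrublet scores (scanpy 1.11.5), at a rate of 0.8% per 1000 cells, were removed as doublets. Cells were gated on fixed levels and were not clustered. Near the gates lay 594 of 29168 cells for Tnnt2 and 393 of 8643 for Hapln1 (within 20% of the limit).

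CPM are UMIs per 1000000 UMIs of the summed cells, except in values with an edgeR test, where TMM-scaled library sizes were used. Library sums were compared with edgeR 4.0.16 (R 4.3.3, filterByExpr, TMM, Benjamini-Hochberg at 0.05), and the fits were tested on simulated data. Shares have Clopper-Pearson and CPM Poisson intervals. The likeness ranking took classes of at least 20 cells and genes of at least 10 CPM in a class mean, and folds between cell sets used a pseudocount of 2 CPM. Depth of the cells used ran from 97108290 to 113489837 UMIs per library.

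Named were Cthrc1, list members passing the test, the 2 of each list with the largest change in cardiomyocytes and in cushion mesenchyme, chromosomal neighbours and the 10 most alike genes. Any other gene was chosen after its values were seen. 1 gene that this rule names is not reported here. The gene, its lists and the comparisons were chosen with earlier results of these data known. Alternatives were RLE, DESeq2 1.42.0, no filter, a minimum of 10 counts per library, the replicate block, leaving out each library, doublets kept, at most 10% mitochondrial counts, thinning, Tnnt2 of at least 20, cells without a mesenchyme marker UMI and other reference genes.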

Additional observations from a re-analysis of the deposited data

How the results depend on the processing

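Because the gene was chosen for its lower level in the same libraries, its sign in cardiomyocytes is given as a description only. The log2 fold change of Cthrc1 in cardiomyocytes stayed negative in all 15 alternatives. From -0.92 it moved to -0.78 with doublets kept, -1.09 with cells thinned to 2000 UMIs and -1.15 in cells without a mesenchyme marker UMI, where 13, 15, 15 and 3 Cthrc1 UMIs were left in Wt1, Wt2, Ho1 and Ho2 and the level fell to 5.70, 2.74, 2.13 and 0.889 CPM. The fold change ran from -0.98 to -0.85 when each library was left out. In the cushion mesenchyme it was 0.036 and turned to -0.044 with thinned cells, with a range of -0.0018 to 0.074 without each library. In the other mesenchyme it ran from -0.92 to 0.92, and in the endocardium from -0.29 to 3.01e-05. Over the 13 alternatives of each class the adjusted p of edgeR or DESeq2 was 0.900 to 1.000, 0.235 to 1 and 0.471 to 1.000 in cushion, other mesenchyme and endocardium.

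The Ho minus Wt difference in the thinned share of cardiomyocytes with a Cthrc1 UMI was -1.49 percentage points. It was -1.75 without thinning, -2.46 at 5000 UMIs, -1.78 with doublets kept, -0.769 at Tnnt2 of at least 20 and -0.974 without mesenchyme marker UMIs, and -1.58 to -1.40 without each library. In the other mesenchyme it was 3.56, -1.28 without thinning and -10.1 to 17.2 without each library. In the endocardium it was -0.839, and 0.192 at 5000 UMIs. The share of high-Cthrc1 cardiomyocytes was lower in Ho with a limit of at least 3 UMIs, with doublets kept and with cells without a Hapln1 or Postn UMI counted alone, all tried after seeing the data (-1.07 to -1.70 points). Its difference was not computed without each library, and it leans on Wt2, at 4.05% against 2.81% in Wt1.

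The ratio of Cthrc1 to the mesenchyme list in cardiomyocytes, as log2 over that in mesenchyme of the same library, was -1.28, and -1.80 at Tnnt2 of at least 20. It became 2.24 with Postn alone and 1.80 with Hapln1 alone, -0.10 with Col3a1 alone and -0.31 without Prrx2, the Hapln1 and Prrx2 settings having been added after seeing the data.

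Counts of called genes were unstable. In cardiomyocytes the 0 became 23 with DESeq2, 223 without a filter, 1 with at least 10 counts in every library, 4 with thinned cells, 8 at Tnnt2 of at least 20, 29 without mesenchyme marker UMIs and 1 to 356 without each library (213 without Ho1 and 356 without Ho2). In the cushion the 5 became 9, 129, 13 and 1 under the first 4 of these, 2 with doublets kept and 33 to 123 without each library. In the other mesenchyme the 0 became 33 with DESeq2, 44 without a filter and 0 to 70 without each library, and in the endocardium the 1 became 20, 183 and 9 with DESeq2, no filter and thinned cells and 11 to 176 without each library. The cause was not tested. With the replicate block the calls were 0, 50, 0 and 21 in cardiomyocytes, cushion, other mesenchyme and endocardium. Libraries share only a number, and deviations of same-numbered libraries correlated at -0.20, 0.07, -0.51 and -0.0032 over genes. With the numbers crossed, added after seeing the data, the calls were 15, 55, 0 and 26.

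With 2 libraries of each genotype, of which Ho1 differs in sex-linked transcripts and in cushion genes, small changes of Cthrc1 were not detectable, and the embryos per library are not given in the sources used here. Depth and class mix differ between libraries, and whether the dissection did is not given in the sources used here. Shares of cells with a UMI depend on depth, and the thinned shares of cardiomyocytes rest on 52 to 86 cells per library.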
